A study of Homo sapiens with 6 samples.

Results

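The genes that cells switch on in answer to interferons were measured in HK-2 cells given oxidized low-density lipoprotein (OX-LDL), and 10 of them differed from Control cells, 8 upward and 2 downward, a count that ranged from 5 to 13 when 1 library was left out. Over all 19510 genes tested, 3108 differed, or 1375 to 3211 when 1 library was left out. The 37 genes were listed by name as interferon-stimulated genes, by a rule that uses no measured value although earlier results of these data were known, out of 58825 genes in the expression table, and each name matched 1 row. HK-2 is an immortalised human proximal tubule epithelial line, so all libraries come from a single line. The 3 Control libraries came from untreated HK-2 cells, for which no time is given, and the 3 OX-LDL libraries from HK-2 cells kept for 48 h in OX-LDL at 25 μg/ml. No library came from cells given native lipoprotein or an interferon. The labels do not say whether the libraries of a group came from separate cultures, so the p-values measure the spread between these libraries, which may be technical.

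Type I and type III interferons are secreted proteins that bind receptors at the cell surface, where the kinases JAK1 and TYK2 phosphorylate STAT factors, STAT2 among them. These join IRF9 in a complex called ISGF3, which binds short DNA motifs in the promoters of interferon-stimulated genes. The products of these genes sense viral RNA, block viral translation, entry or release, or tune the response itself, and many are also transcribed at a low basal level without added interferon. Epithelial cells of many tissues carry the receptors and the sensors, as immune cells do.

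Each library held 62561347 to 76797607 estimated counts, with about 4 counts to a read pair, so that 12 counts stand for about 3 read pairs and were taken as the limit of detection. Levels are given as FPKM, fragments scaled by transcript length and by library size, and differences as log2 fold changes of OX-LDL over Control with their standard error (SE). The differences come from edgeR's quasi-likelihood test on the counts of the 19510 genes whose mean level reached 0.1 FPKM, with Benjamini-Hochberg adjustment over all of them, and a gene was called at an adjusted p under 0.05. No single library stood apart in depth. The epithelial markers KRT8, KRT18 and EPCAM were present at 30.9 FPKM or more in every library, whereas CDH1 lay near 0.1 FPKM. Of the defining markers of the proximal tubule, LRP2 was at 0 in all 6 libraries, CUBN, ANPEP, AQP1 and SLC34A1 had a mean under 0.1 FPKM and SLC5A2 was at 0.165 FPKM, so the epithelial part of the label is seen in these data and its proximal tubule part is not. The summed level of 9 renal tubule markers was 44.1 to 72.9 FPKM in Control and 27.2 to 33.2 in OX-LDL, mostly from PAX8, which marks the renal epithelium at large and fell from 46.6 ± 12.9 to 19.4 ± 4.17 FPKM (log2 fold change -1.23, adjusted p = 0.0241), and from CDH16. With 1 library left out, the PAX8 call held only without Control 3 or OX-LDL 2. It was lost without any other library, at an edgeR adjusted p of up to 0.0924 (without OX-LDL 1). The sum of 5 epithelial markers was 120 to 145 against 174 to 224 FPKM, with KRT8 and KRT19 called higher and EPCAM at 51.2 ± 3.68 and 53.1 ± 3.13 FPKM (adjusted p = 0.582). Of 5 fibroblast markers, COL1A2, DCN and PDGFRA had at most 12 counts in every library. However, LUM was at 10.2 ± 1.10 FPKM in Control and 11.4 ± 2.90 in OX-LDL, and COL1A1 at 0.573 ± 0.112 and 0.813 ± 0.165 FPKM. Neither was called. Of 4 endothelial markers, VWF, CDH5 and KDR had at most 12 counts in every library, and PECAM1 had a mean under 0.1 FPKM. Of 6 immune markers, PTPRC, LYZ, CD3E and MS4A1 had at most 12 counts in every library, and the sum of the 6, 3.14 to 7.74 FPKM in Control and 9.16 to 14.0 in OX-LDL, was mostly CD68 (5.21 ± 2.39 against 10.8 ± 2.45, SD, n = 3, adjusted p = 0.103 by edgeR's quasi-likelihood test). These shifts run alongside the differences given here, and their part in them was not tested. In bulk RNA, fewer cells that express a gene and less of its RNA per cell cannot be told apart.

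More of the interferon-stimulated genes lay higher than lower in OX-LDL, with exceptions in both size and direction. Of the 37, 33 passed the level filter, each with a mean of at least 0.134 FPKM in both groups, and the other 4 were OAS2, MX2, ISG20 and XAF1. Among the 33, 10 were called (30.3%), where 15.9% of all genes tested were called. That count was 5 without Control 2, 6 without Control 1, OX-LDL 1 or OX-LDL 3, 7 without Control 3 and 13 without OX-LDL 2. Over all 19510 genes, the count of 3108 moved as well. It was 1375 without Control 2, 2057 without Control 1, 1590 without OX-LDL 1 and 1437 without OX-LDL 3. Without Control 3 it was 2223, and without OX-LDL 2 it was 3211. The 8 that rose were IFI44, USP18, IFITM1, OAS3, ISG15, IFIT1, BST2 and PARP9 (24.2%, where 8.23% of all genes rose), and the 2 that fell were DDX58 and IFIT2 (6.06%, where 7.7% of all genes fell). The log2 fold change was above 0 in 25 of the 33 and below 0 in 8, with a median of 0.40 and a range from -0.89 to 1.16, beside a median of -0.00432 and 49.7% above 0 over all genes tested. In 13 members (39.4%) all OX-LDL libraries had a higher FPKM than all Control libraries, as in 16.8% of all genes, and in 3 (9.09%) all were lower, as in 20.5% of all genes. By the second rule, a fold change above 2 or below 0.5 with an unadjusted p under 0.05, 2 members passed, IFI44 and IFITM2, and 6.07% of all genes did.

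Most of the members are transcribed at low to moderate levels in these cells. The mean over the 6 libraries reached 1 FPKM in 25 members and ranged among those tested from 0.156 FPKM for MX1 to 87.3 FPKM for BST2. BST2 alone gave 28.2 to 34.5% of the summed FPKM of the 37 genes. That sum was 248, 244 and 268 FPKM in the 3 Control libraries and 299, 306 and 310 FPKM in the 3 OX-LDL libraries, so the groups did not overlap. A large part of that difference was BST2, whose mean went from 73.9 to 101 FPKM.

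**Figure D1:**
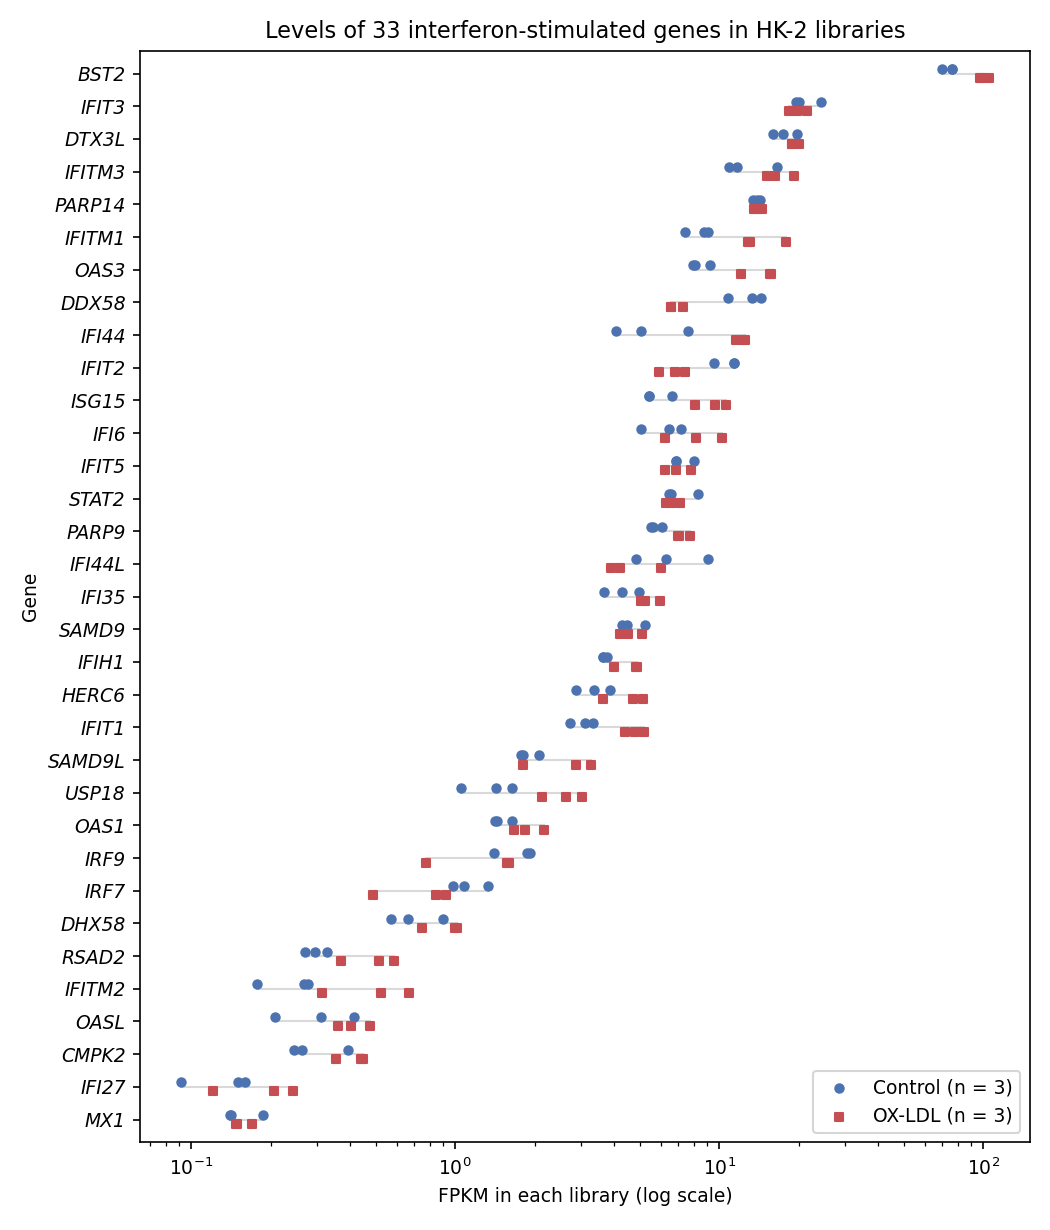
FPKM of the 33 tested interferon-stimulated genes in each Control library (blue circles) and OX-LDL library (red squares), on a log scale, sorted by mean level, with a grey line from the lowest to the highest library. The OX-LDL points of BST2, OAS3, IFI44 and IFITM1 lie to the right of all Control points, and those of DDX58 and IFIT2 to the left.

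Among the RNA sensors, DDX58 fell, and its relatives IFIH1 and DHX58 were not called. DDX58 (ENSG00000107201, GRCh38 chr9:32455302-32526208, minus strand), now also named RIGI, encodes RIG-I, the cytosolic helicase that recognises viral RNA with an uncapped end. It was at 14.4, 13.3 and 10.8 FPKM in Control and 6.55, 7.29 and 6.55 FPKM in OX-LDL, that is 12.9 ± 1.84 against 6.80 ± 0.426 (SD, n = 3). The difference was -0.89 on the log2 scale (SE 0.12, 95% interval -1.17 to -0.60, edgeR adjusted p = 0.00491), a level 1.85-fold lower. Every OX-LDL library was below every Control library, and the call held when any 1 library was left out. IFIH1, which encodes MDA5 and binds long double-stranded RNA, was at 3.66 ± 0.0740 FPKM in Control and 4.56 ± 0.50 in OX-LDL. Its groups did not overlap, but its difference of 0.35 (SE 0.11) did not pass the test (adjusted p = 0.0733). DHX58, which encodes LGP2, a regulator of the other two, was at 0.712 ± 0.171 and 0.923 ± 0.149 FPKM (log2 difference 0.40, SE 0.24, adjusted p = 0.326), with overlapping groups. The 95% intervals of DDX58 and IFIH1, the latter 0.09 to 0.60, lie on opposite sides of 0, but they are not adjusted for the number of genes tested. With 1 library left out, IFIH1 was called only without OX-LDL 2 (edgeR adjusted p = 0.025).

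The 4 IFIT genes lie in a row on chromosome 10 and did not move together. They encode tetratricopeptide proteins, some of which bind foreign 5′ RNA ends and hold back their translation. IFIT1 (ENSG00000185745, GRCh38 chr10:89392546-89406487, plus strand) was at 3.11, 2.72 and 3.31 FPKM in Control and 4.80, 4.40 and 5.20 FPKM in OX-LDL. It rose by a log2 fold change of 0.69 (SE 0.12, adjusted p = 0.012), and its groups did not overlap. Its call held without any 1 library, though only just without OX-LDL 3 (adjusted p = 0.0498). IFIT2 (ENSG00000119922, chr10:89283694-89309271, plus strand), which partners other IFIT proteins and is linked to cell death, was at 9.56, 11.4 and 11.4 FPKM in Control and 5.93, 7.41 and 6.82 FPKM in OX-LDL. Its log2 difference was -0.65 (SE 0.12, 95% interval -0.92 to -0.38, adjusted p = 0.0115), again with no overlap of the groups. Without Control 2 the adjusted p of IFIT2 was 0.050, just above the threshold, and it was under it without any other library. IFIT1 and IFIT2 were thus called in opposite directions, with 95% intervals (0.39 to 0.98 for IFIT1) far from each other.

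IFIT3, which stabilises IFIT1, was the most abundant of the family, at 19.5, 20.0 and 24.2 FPKM in Control and 18.4, 19.7 and 21.5 FPKM in OX-LDL. Its log2 difference of -0.065 (95% interval -0.32 to 0.19, adjusted p = 0.749) has an interval that holds the difference of neither IFIT1 nor IFIT2. IFIT5 was at 6.88, 6.87 and 8.03 FPKM in Control and 6.84, 6.22 and 7.80 FPKM in OX-LDL (log2 difference -0.031, SE 0.12, adjusted p = 0.899), with overlapping groups. IFIT1, IFIT2 and IFIT3 lie opposite the lysosomal lipase gene LIPA, and IFIT2 also overlaps the unnamed gene model AL353751 on its own strand. LIPA itself went from 19.3 ± 0.648 to 23.5 ± 1.81 FPKM (log2 difference 0.32, adjusted p = 0.0351). The use of strand in the counting is not given in the sources used here, so reads of overlapping genes may be shared between them.

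The OAS genes encode synthetases that make 2′-5′ linked oligoadenylates on double-stranded RNA, a second messenger of the antiviral response. OAS3 (ENSG00000111331, GRCh38 chr12:112938444-112968054, plus strand), the longest of them, was at 8.07, 7.99 and 9.23 FPKM in Control and 15.8, 12.1 and 15.6 FPKM in OX-LDL, 8.43 ± 0.695 against 14.5 ± 2.09 (SD, n = 3). It rose by a log2 fold change of 0.81 (SE 0.12, 95% interval 0.53 to 1.09, adjusted p = 0.00633), a 1.75-fold higher level, with no overlap and in all 6 fits that left out 1 library. OAS1, its neighbour, was at 1.5 ± 0.122 and 1.89 ± 0.255 FPKM, with groups that did not overlap and a log2 difference of 0.37 (SE 0.15, adjusted p = 0.142) that was not called. OASL, an OAS-like protein without synthetase activity that binds RIG-I, was at 0.312 ± 0.103 and 0.413 ± 0.0570 FPKM (log2 difference 0.44, SE 0.31, adjusted p = 0.406). OAS2, the third gene of the row, was under the level filter, with 14, 12 and 26 counts in Control and 12, 30 and 35 in OX-LDL, which is a few read pairs in each library. OAS1, OAS2 and OAS3 lie opposite an antisense gene model, AC004551.

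The IFITM genes encode small membrane proteins that block the fusion of viruses with the cell. IFITM1 (ENSG00000185885, GRCh38 chr11:313506-315272, plus strand), which acts mostly at the cell surface, was at 7.43, 8.79 and 9.10 FPKM in Control and 12.9, 17.8 and 13.1 FPKM in OX-LDL. IFITM1 rose by a log2 fold change of 0.82 (SE 0.17, 95% interval 0.43 to 1.22, adjusted p = 0.0187), and its groups did not overlap. The call was lost without Control 1 (adjusted p = 0.0614) or Control 2 (0.0658). IFITM3, which acts in endosomes, was at 11.6, 10.9 and 16.5 FPKM in Control and 15.2, 19.1 and 16.3 FPKM in OX-LDL. Its difference of 0.40 on the log2 scale (SE 0.18, adjusted p = 0.19) was not called, and Control 3 lay among the OX-LDL libraries. IFITM2 was far lower, at 0.277, 0.178 and 0.267 FPKM in Control and 0.671, 0.314 and 0.524 FPKM in OX-LDL. Its log2 difference of 1.01 (SE 0.41, 95% interval 0.06 to 1.96, adjusted p = 0.142) passed the fold rule but not the adjusted p. The 3 genes have closely similar coding sequences, and the IFITM2 model ends at the same base as IFITM1 and covers it on the same strand, so the values of IFITM2 in particular are uncertain. IFITM3 overlaps a gene model, AC136475.

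ISG15 and its machinery were called in 2 of 3 members, both upward (66.7%, where 8.23% of all genes rose). ISG15 (ENSG00000187608, GRCh38 chr1:1001138-1014540, plus strand), a ubiquitin-like protein that is attached to other proteins and is also secreted, was at 5.41, 6.60 and 5.44 FPKM in Control and 9.65, 8.12 and 10.6 FPKM in OX-LDL. ISG15 rose by a log2 fold change of 0.73 (SE 0.16, adjusted p = 0.0236), with no overlap. USP18 (ENSG00000184979, GRCh38 chr22:18149899-18177397, plus strand), the protease that removes ISG15 and that also damps signalling at the type I interferon receptor, was at 1.05, 1.64 and 1.43 FPKM in Control and 2.63, 2.13 and 3.02 FPKM in OX-LDL. The log2 fold change of USP18 was 0.95 (SE 0.22, adjusted p = 0.03), a 1.93-fold higher level, again with no overlap. Both calls held without OX-LDL 2 but were lost without any other library, at an adjusted p of 0.0515 (without Control 2) to 0.0917 (without OX-LDL 3) for ISG15 and 0.0564 (without Control 2) to 0.109 (without OX-LDL 3) for USP18. HERC6, a HECT-domain ligase whose mouse counterpart attaches ISG15, was at 3.35 ± 0.492 and 4.5 ± 0.792 FPKM (log2 difference 0.46, SE 0.16, adjusted p = 0.104) with overlapping groups. ISG15 lies opposite the gene model AL645608, and USP18 has a close copy, USP41, with which it may share reads.

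BST2 (ENSG00000130303, GRCh38 chr19:17402939-17405630, minus strand), or tetherin, holds budding viruses to the cell membrane and was the most abundant member. It was at 76.0, 69.9 and 75.8 FPKM in Control and 99.0, 105 and 97.6 FPKM in OX-LDL, 73.9 ± 3.45 against 101 ± 4.17 (SD, n = 3). It rose by a log2 fold change of 0.48 (SE 0.08, 95% interval 0.30 to 0.66, adjusted p = 0.00799), a 1.39-fold higher level, with no overlap and in all 6 fits that left out 1 library. Its rise was the largest of the members in FPKM, although 6 of the 8 members that rose had a larger log2 fold change.

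PARP9 (ENSG00000138496, GRCh38 chr3:122527924-122564577, minus strand) and DTX3L encode partner proteins, an ADP-ribosyltransferase homologue and a ubiquitin ligase, and overlap at their 5′ ends on opposite strands. PARP9 was at 6.06, 5.52 and 5.61 FPKM in Control and 7.01, 6.97 and 7.72 FPKM in OX-LDL, and rose by a log2 fold change of 0.37 (SE 0.08, adjusted p = 0.0267), the smallest of the calls. Its groups did not overlap, but the call held only without Control 1 or OX-LDL 2, and was lost without Control 2 (adjusted p = 0.0989), Control 3 (0.0754), OX-LDL 1 (0.0581) or OX-LDL 3 (0.0945). DTX3L was at 15.9, 17.4 and 19.6 FPKM in Control and 18.8, 18.8 and 20.1 FPKM in OX-LDL (log2 difference 0.16, SE 0.09, adjusted p = 0.299). PARP14, a mono-ADP-ribosyltransferase farther along the chromosome, was at 14.3, 13.4 and 13.8 FPKM in Control and 14.0, 13.5 and 14.6 FPKM in OX-LDL (log2 difference 0.049, 95% interval -0.11 to 0.21, adjusted p = 0.698). Libraries of both groups overlapped for DTX3L and for PARP14.

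The IFI genes held the largest rise. IFI44 (ENSG00000137965, GRCh38 chr1:78649796-78664078, plus strand), a cytoplasmic protein with antiviral activity, was at 5.08, 4.08 and 7.59 FPKM in Control and 12.6, 11.6 and 12.4 FPKM in OX-LDL, 5.58 ± 1.81 against 12.2 ± 0.510 (SD, n = 3). IFI44 rose by a log2 fold change of 1.16 (SE 0.22, 95% interval 0.64 to 1.68, adjusted p = 0.0148), a 2.23-fold higher level, with no overlap. The adjusted p lay above the threshold without Control 1 (0.0555), OX-LDL 1 (0.0508) and OX-LDL 3 (0.0532), and the log2 fold change stayed at 0.97 to 1.44 whichever library was left out. IFI44L, its paralogue next to it on the same strand, was at 6.26, 4.86 and 9.03 FPKM in Control and 3.90, 6.02 and 4.21 FPKM in OX-LDL. Its log2 difference of -0.48 (SE 0.27, 95% interval -1.15 to 0.19, adjusted p = 0.306) was not called, and its interval did not reach that of IFI44.

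IFI6, a mitochondrial and endoplasmic reticulum protein that opposes apoptosis, was at 7.19, 6.43 and 5.06 FPKM in Control and 8.18, 6.21 and 10.2 FPKM in OX-LDL (log2 difference 0.43, SE 0.23, adjusted p = 0.259). IFI35, which binds NMI, was at 4.30 ± 0.664 and 5.42 ± 0.486 FPKM with groups that did not overlap (log2 difference 0.36, SE 0.15, adjusted p = 0.157). IFI27, often among the strongest interferon responses in blood, was near the level filter at 0.134 ± 0.0375 and 0.190 ± 0.0629 FPKM (log2 difference 0.49, adjusted p = 0.47). None of these 3 genes was called.

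The remaining effectors gave no call. RSAD2 encodes viperin, which makes a chain-terminating nucleotide, and CMPK2, beside it on the opposite strand, supplies the nucleotide pool. RSAD2 was at 0.327, 0.296 and 0.269 FPKM in Control and 0.370, 0.515 and 0.586 FPKM in OX-LDL, with no overlap and a log2 difference of 0.75 (SE 0.25, adjusted p = 0.0909), and CMPK2 at 0.301 ± 0.0810 and 0.414 ± 0.0513 FPKM (log2 difference 0.50, adjusted p = 0.268). SAMD9L, a growth and translation suppressor, was at 1.89 ± 0.162 and 2.65 ± 0.752 FPKM (log2 difference 0.52, adjusted p = 0.153), and its paralogue SAMD9 at 4.66 ± 0.487 and 4.62 ± 0.459 FPKM (log2 difference 0.018, 95% interval -0.26 to 0.30, adjusted p = 0.943), a value of -0.0103 when counts were scaled by library totals. MX1, the dynamin-like GTPase widely used as an interferon marker, was at 0.156 ± 0.0263 and 0.156 ± 0.0127 FPKM (log2 difference 0.034, 95% interval -0.54 to 0.61). MX1 was thus barely transcribed in either group, and its groups overlapped.

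The genes under the level filter had few reads. MX2 had 8, 8 and 0 counts in Control and 0, 22 and 25 in OX-LDL, and ISG20, an RNA exonuclease, had 66, 44 and 38 counts in Control and 25, 72 and 63 in OX-LDL. XAF1, a pro-apoptotic antagonist of XIAP, had 0, 0 and 12 counts in Control and 0 in all 3 OX-LDL libraries, at or under the limit of detection everywhere. None of these genes was called when the fit was made without a minimum level.

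The members that are transcription factors of the pathway had no call, and all 3 had log2 differences below 0. STAT2 was at 7.09 ± 1.03 FPKM in Control and 6.65 ± 0.408 in OX-LDL (log2 difference -0.059, 95% interval -0.32 to 0.20, adjusted p = 0.78), and at 0.0564 without Control 2. IRF9, the DNA-binding subunit of ISGF3, was at 1.40, 1.93 and 1.87 FPKM in Control and 0.774, 1.60 and 1.57 FPKM in OX-LDL (log2 difference -0.35, SE 0.29, adjusted p = 0.476). IRF7, which drives the transcription of interferon genes, was at 0.982, 1.33 and 1.08 FPKM in Control and 0.922, 0.845 and 0.487 FPKM in OX-LDL. Every OX-LDL library was below every Control library for IRF7, but the log2 difference of -0.56 (SE 0.28, 95% interval -1.20 to 0.09, adjusted p = 0.226) was not called.

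**Figure D2:**
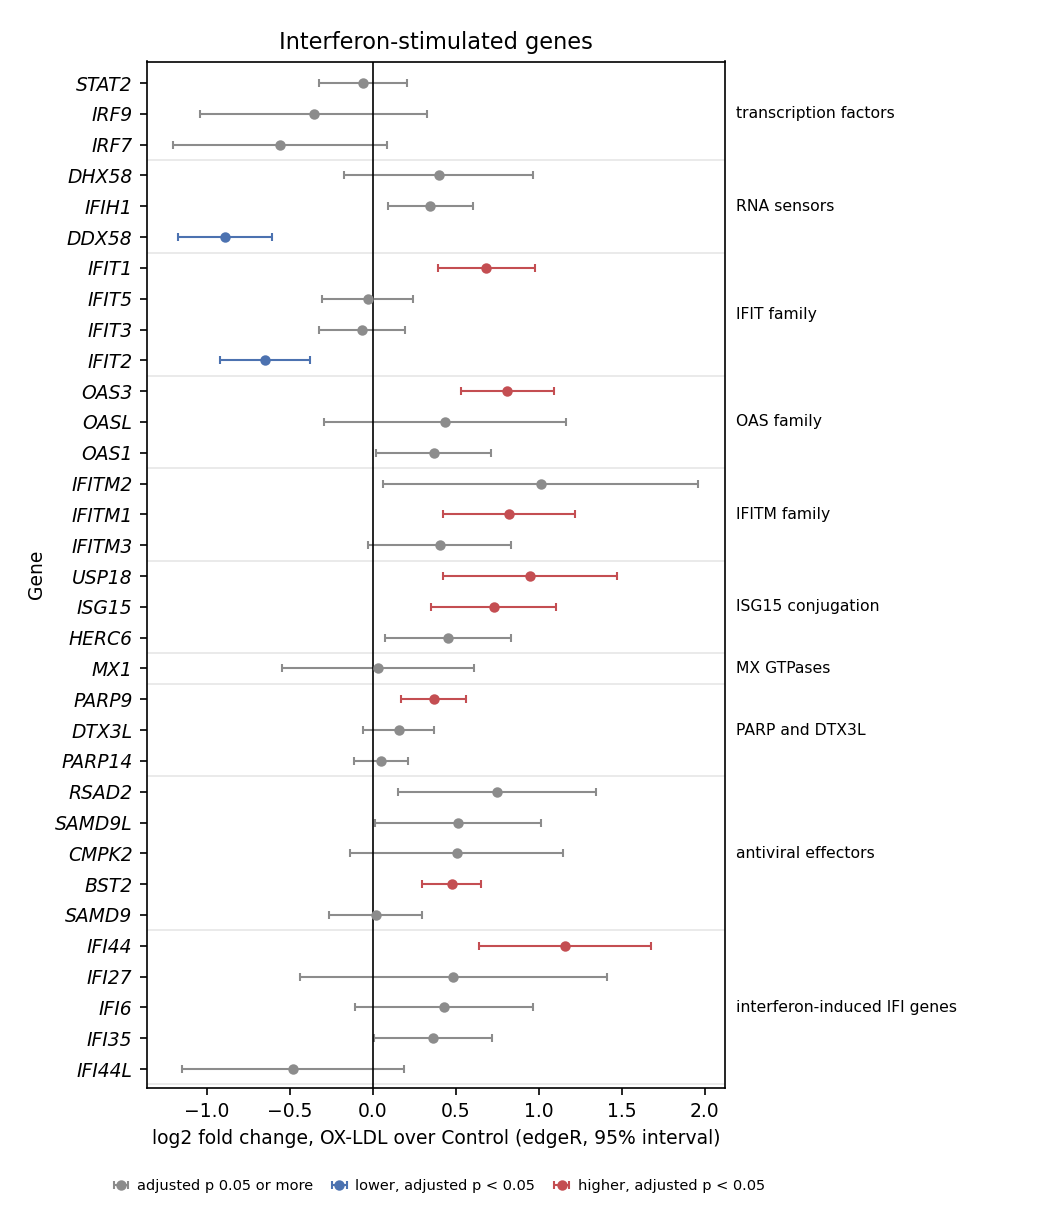
Log2 fold change of OX-LDL over Control for the 33 tested members, grouped by role, with 95% intervals from edgeR on 3 libraries a group, red for the 8 called higher, blue for the 2 called lower and grey for the rest. The calls are spread over 7 of the 10 role groups as rises, and the falls are 1 RNA sensor and 1 IFIT gene.

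Members that lie within 100 kb of each other form 8 rows on as many chromosomes, with 20 members in all. On chromosome 10 the order IFIT2, IFIT3, IFIT1, IFIT5 gave log2 differences of -0.65, -0.065, 0.69 and -0.031, and on chromosome 1 IFI44L and IFI44 gave -0.48 and 1.16. In the other 5 of the 7 rows with at least 2 tested members the differences had 1 sign, all above 0, at 1.01, 0.82 and 0.40 for IFITM2, IFITM1 and IFITM3 and 0.37 and 0.81 for OAS1 and OAS3. They were at 0.50 and 0.75 for CMPK2 and RSAD2, 0.37 and 0.16 for PARP9 and DTX3L, and 0.018 and 0.52 for SAMD9 and SAMD9L, of which SAMD9 was below 0 when scaled by library totals. No row had more than 1 call in the same direction.

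**Figure D3:**
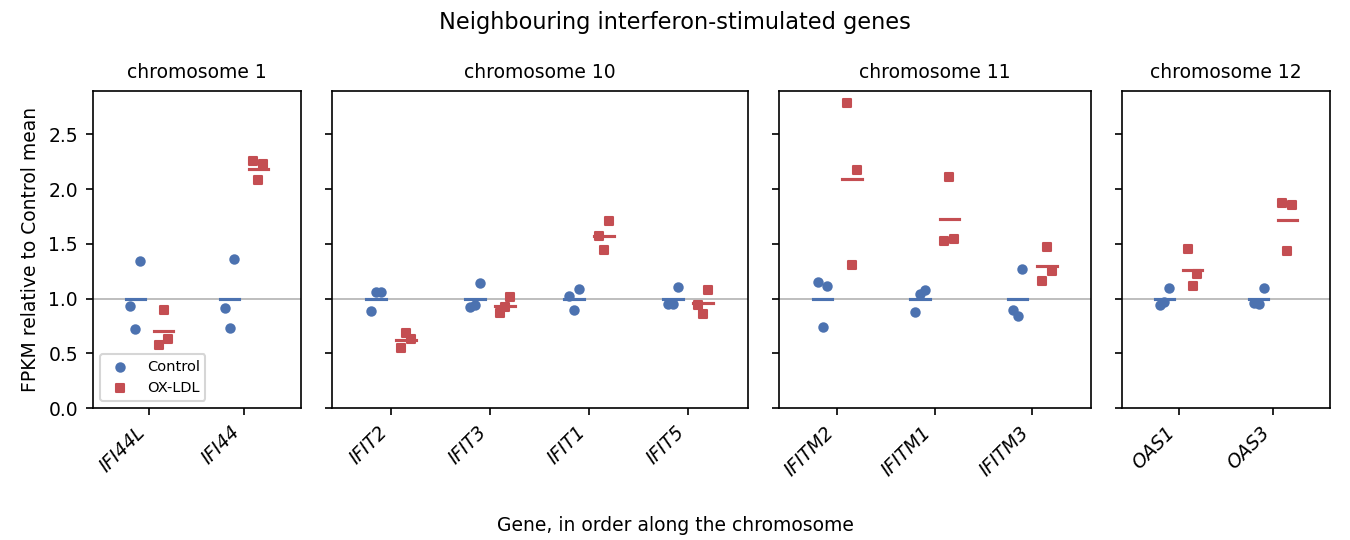
FPKM of each library relative to the mean of the 3 Control libraries, for the tested members of 4 rows of neighbouring genes in chromosomal order, with Control as blue circles, OX-LDL as red squares and bars at the group means. IFIT2 lies below and IFIT1 above their Control libraries with IFIT3 and IFIT5 near 1 between and beside them, and IFI44 lies above while IFI44L overlaps Control.

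ISGF3 binds the interferon-stimulated response element, whose core was searched for as GAAANNGAAA on both strands, with overlapping matches counted, in RefSeq promoter windows (GRCh38.p14) of 300 bases, 250 before and 50 after each start. Of 35116 windows, 1255 (3.57%) held the core, which gives 1195 of 27305 genes (4.38%). Of the 29 members with an entry, 20 held it (69.0%), among them all 7 with an entry of the members that rose and 13 of the other 22. Those 22 are DDX58, which fell, and members not called or not tested. IRF7, DHX58, IFIT2, OAS2, OASL, IFITM2, USP18 and MX2 had no entry, so neither IFIT2, which fell, nor USP18, which rose, was searched. Whether the core goes with a rise was not tested. The 250 bases before the start are shown, with the core in capitals, for the 4 called members with the smallest p-values among those with an entry. These 4 were also the members called in every fit that left out 1 library. They are OAS3 (chr12:112938224-112938473, plus strand), BST2 (chr19:17405631-17405880, minus strand), IFIT1 (chr10:89392373-89392622, plus strand) and DDX58 (chr9:32526197-32526446, minus strand), each written 5′ to 3′ along its gene.
OAS3: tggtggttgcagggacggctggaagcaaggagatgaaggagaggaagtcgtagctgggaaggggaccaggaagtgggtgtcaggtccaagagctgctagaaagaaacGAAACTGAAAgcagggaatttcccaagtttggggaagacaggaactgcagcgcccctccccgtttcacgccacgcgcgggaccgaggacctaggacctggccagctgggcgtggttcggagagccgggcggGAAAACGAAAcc
BST2: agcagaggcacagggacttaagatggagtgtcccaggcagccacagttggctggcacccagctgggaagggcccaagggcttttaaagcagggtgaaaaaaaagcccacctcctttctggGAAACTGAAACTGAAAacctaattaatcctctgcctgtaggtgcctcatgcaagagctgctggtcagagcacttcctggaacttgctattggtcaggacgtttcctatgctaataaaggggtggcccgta
IFIT1: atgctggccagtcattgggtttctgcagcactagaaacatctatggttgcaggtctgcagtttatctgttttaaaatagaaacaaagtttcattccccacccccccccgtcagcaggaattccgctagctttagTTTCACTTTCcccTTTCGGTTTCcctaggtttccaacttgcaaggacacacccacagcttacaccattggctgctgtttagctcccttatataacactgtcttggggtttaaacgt
DDX58: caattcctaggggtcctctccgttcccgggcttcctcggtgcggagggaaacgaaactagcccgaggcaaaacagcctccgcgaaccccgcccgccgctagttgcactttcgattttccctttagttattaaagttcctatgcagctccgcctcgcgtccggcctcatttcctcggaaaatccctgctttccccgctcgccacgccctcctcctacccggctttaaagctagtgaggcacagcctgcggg

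OAS3 holds the core with its first base 143 and 12 bases before the start. BST2 holds it at 130 and 124 bases, as 2 overlapping matches that make 1 run of capitals. IFIT1 holds it at 116 and 103 bases, on the other strand, so that it reads as its reverse complement. The letters of the core are not in the window of DDX58. A match is a description of the letters and was not tested as a binding site.

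The other genes of the pathway, a list of 96 drawn up beside the members, include those upstream of them. Of these, 68 passed the level filter and 16 were called (23.5%, where 15.9% of all genes were called), 11 upward and 5 downward, and the median of the log2 differences was 0.19. The count of 16 was 4 without OX-LDL 3, 6 without Control 2 or OX-LDL 1, and 9 without Control 1. Over all 19510 genes, the 3108 calls fell to 1437 without OX-LDL 3, 1375 without Control 2, 1590 without OX-LDL 1 and 2057 without Control 1. No interferon gene was transcribed at a level that could be tested. Of 21 interferon genes, 16 had 0 counts in all 6 libraries and 20 had at most 12 counts in every library. IFNB1, an early type I interferon, had 4, 6 and 4 counts in Control and 0 in all 3 OX-LDL libraries, about 1 read pair a Control library and under the limit of detection. IFNL1 was among those 20. A count of 0 in a library leaves room for up to 12 counts, and interferon protein was not measured here, so these counts limit the transcripts and not the protein.

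Of the 9 receptor chains and kinases, JAK1 rose (11.1%, where 8.23% of all genes rose) and the others were not called. JAK1 was at 53.1, 47.4 and 52.2 FPKM in Control and 69.5, 66.1 and 73.1 FPKM in OX-LDL (log2 fold change 0.48, SE 0.08, adjusted p = 0.00868), with no overlap. The receptor chain IFNAR1 was at 11.3 ± 0.273 and 12.3 ± 0.524 FPKM (log2 difference 0.15, adjusted p = 0.188), IFNAR2 at 5.61 ± 1.02 and 7.81 ± 0.668 FPKM (0.51, adjusted p = 0.0584) and TYK2 at 4.47 ± 0.436 and 4.29 ± 0.216 FPKM (-0.029, adjusted p = 0.885). IFNAR2 was close to the threshold and was called without Control 1 (adjusted p = 0.0207).

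Of the 7 other STAT and IRF factors, 6 were tested, STAT3 rose and IRF1 fell (16.7% each, where 8.23% of all genes rose and 7.7% fell). STAT3, a factor shared with many cytokines, was at 9.21 ± 0.462 FPKM in Control and 12.3 ± 0.541 in OX-LDL (log2 fold change 0.45, SE 0.07, adjusted p = 0.00892), with no overlap and in all 6 fits that left out 1 library. IRF1, a factor induced by interferon gamma, fell from 3.85 ± 0.886 to 2.10 ± 0.134 FPKM (log2 fold change -0.84, SE 0.17, adjusted p = 0.0158), a call lost without OX-LDL 1 (0.0537) or OX-LDL 3 (0.0656). IRF3, which switches on IFNB1 after sensing, was at 4.15 ± 0.878 and 5.67 ± 0.926 FPKM (0.48, SE 0.18, adjusted p = 0.128).

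Of 11 genes for nucleic acid sensing, 9 were tested, none rose and 2 fell, where 8.23% of all genes rose and 7.7% fell, and 6 of the 9 had a log2 difference above 0. IKBKE, a kinase of the sensing pathway named here after its values were seen, was at 0.731 ± 0.142 and 1.24 ± 0.205 FPKM with no overlap (log2 difference 0.79, SE 0.23, adjusted p = 0.0543, and 0.00802 in DESeq2). MB21D1, which encodes the DNA sensor cGAS, went from 12.8 ± 0.877 to 9.64 ± 0.707 FPKM (log2 fold change -0.37, SE 0.09, adjusted p = 0.0339), and the endosomal RNA sensor TLR3 from 2.03 ± 0.296 to 1.3 ± 0.172 FPKM (-0.61, SE 0.16, adjusted p = 0.0416). Both calls were lost in every fit that left out 1 library, at an adjusted p of 0.0565 to 0.116 for MB21D1 and 0.0666 to 0.11 for TLR3, although the groups of both genes did not overlap. Of the 6 negative regulators, SOCS3 (log2 fold change 0.51, adjusted p = 0.0195) and the phosphatase PTPN6 (0.58, adjusted p = 0.025) rose and the phosphatase PTPN11 fell (-0.30, adjusted p = 0.0197). That is 33.3% upward and 16.7% downward, where 8.23% of all genes rose and 7.7% fell.

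Of 42 further interferon-stimulated genes, 38 were tested, 7 rose (18.4%, where 8.23% of all genes rose) and 1 fell (2.63%, where 7.7% of all genes fell). NMI, the partner of IFI35, rose by 0.74 (SE 0.11, adjusted p = 0.00611), and was called in all 6 fits that left out 1 library. The others that rose were EPSTI1 (1.38, at 0.13 ± 0.0286 and 0.330 ± 0.0763 FPKM), DDX60L (0.83), DDX60 (0.63), the GTPase GBP3 (0.62), the nuclear body protein SP100 (0.43) and EIF2AK2 (0.32), which encodes the RNA-activated kinase PKR. TRIM25, the ubiquitin ligase that acts with RIG-I, was at 11.2, 13.2 and 13.6 FPKM in Control and 7.02, 6.92 and 6.77 FPKM in OX-LDL. TRIM25 fell by 0.84 on the log2 scale (SE 0.08, adjusted p = 0.0016), with no overlap and in all 6 fits that left out 1 library, next to the fall of 0.89 of DDX58. The calls of SOCS3, PTPN6, PTPN11, EPSTI1, DDX60L, DDX60, GBP3, SP100 and EIF2AK2 were each lost without some of the libraries, always with Control 2 and OX-LDL 3 among them, at an adjusted p of 0.0512 to 0.144.

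**Figure D4:**
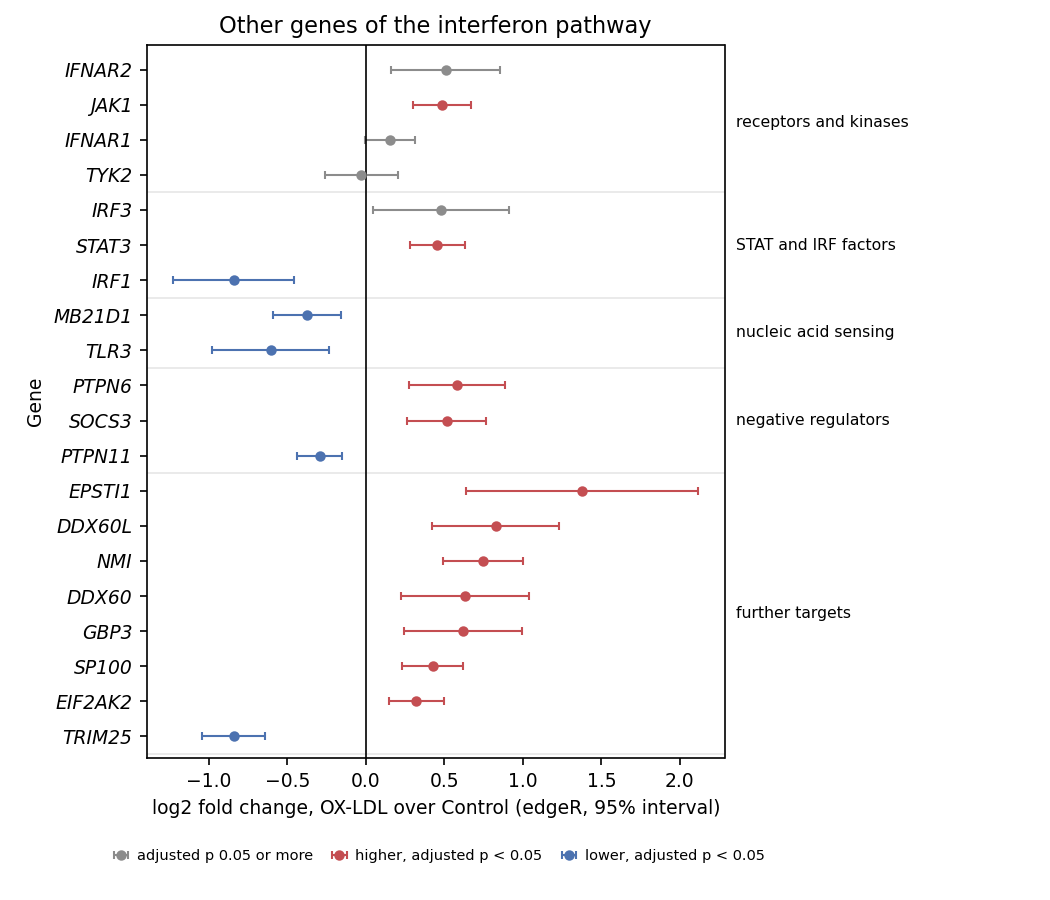
Log2 fold change of OX-LDL over Control for the 16 called genes of the pathway list and for IFNAR1, IFNAR2, TYK2 and IRF3, grouped by role, with 95% intervals from edgeR on 3 libraries a group, red for higher, blue for lower and grey for not called. EPSTI1 lies above 1, and TRIM25 and IRF1 near -0.84.

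In the GO annotation that the expression table carries, 23 of the 37 members have the term for type I interferon signalling and 28 the term for defence against virus. Of the members, 19 overlap another gene model of the table on either strand, and 6 on the same strand, among them IFIT2, IFITM1, IFITM2 and IFITM3.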

How the data were processed

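Poly(A) RNA of 6 HK-2 libraries, 3 Control and 3 OX-LDL, was sequenced in pairs from strand-marked cDNA. The authors deposited 1 table of 58825 genes with estimated counts, whole numbers not scaled for library size, and FPKM values scaled by the authors per kilobase and for library size, with a count of 0 listed at 0.0001 FPKM. The submitters' processing notes name cutadapt (version 1.9), HISAT2 (version 2.0.4), StringTie (version 1.3.4d), edgeR, DESeq2 and GRCh38, and whether counting used strand is not given in the sources used here. Gene names, coordinates and GO terms are those of the table, whose columns of fold changes and p-values, the authors' own comparison, were not used.

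Genes at 4, 8 and 12 counts were 3.26, 2.95 and 2.13 times as frequent as their neighbours, hence about 4 counts per read pair. Counts were fitted in edgeR (version 4.0.16, R version 4.3.3) with TMM factors (0.985 to 1.024), glmQLFit and glmQLFTest with robust estimation, group being the only term, fitted to the 19510 genes whose mean reached 0.1 FPKM. The SE was taken as the fold change on the log2 scale over the square root of F. Alternatives were other scalings and filters, counts divided by 4, DESeq2 (version 1.42.0), limma (version 3.58.1) on log2(FPKM + 0.1) and log2(FPKM + 1), a replicate block and leaving out each library. The fits were tested on simulated data. Exact permutation of 3 against 3 libraries cannot go below p = 0.1, so none was used. Between libraries of a group, the chi-square per gene was 14.9 to 25.6, so none was deposited more than once. It was 14.9 between OX-LDL 1 and OX-LDL 3, but 25.6 and 25.0 between OX-LDL 2 and each of these. The Control pairs were at 21.9 to 22.7.

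The 37 genes, the pathway list and the marker lists were chosen with earlier results of these data known. By the naming rule, every member is accounted for, with values per library for those called and for 6 more of the highest mean FPKM. Values per library of IFITM2, RSAD2, IRF7, IRF9 and IFI44L were added after they were seen. Of the pathway list the called genes and those at its top are named, and 2 others are not reported here and were left out of its counts. GGT1 was left out of the renal markers because the table has 2 rows of that name.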

Additional observations from a re-analysis of the deposited data

How the results depend on the processing

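The same 10 members were called with the other scalings (RLE, upper-quartile and library totals), with both limma fits, with either other level filter and with counts divided by 4, and DESeq2 added IFIH1, RSAD2 and HERC6 to make 13. On simulated counts with 200 changed genes, DESeq2 recovered 64.5% of them with 36 false calls, and edgeR 59.5% with 9. That is far fewer changed genes than the 3108 called here, so these rates cannot tell whether the members added by DESeq2 are false calls. Leaving out 1 library gave 5 to 13 members called, 4 to 11 higher and 1 to 2 lower. The fewest came without Control 2 (5) and the most without OX-LDL 2 (13). Pathway genes called went from 16 to 28 in DESeq2 and to 4 to 15 without 1 library, with the fewest without OX-LDL 3. The median log2 fold change of the members was 0.20 in limma on log2(FPKM + 1), which shrinks low genes by construction, and 0.32 to 0.44 without 1 library. Same-numbered libraries of the groups did not deviate together over all genes tested (correlations -0.041, -0.00313 and 0.0356). These correlations cannot show whether some genes are paired by number. The fit with a replicate block called 7 members, 5 of them higher, and 9 pathway genes, and lost PARP9, USP18 and ISG15. Over all genes, 3108 were called, 4430 in DESeq2, 1909 with the block and 1375 without Control 2. Log2 differences near 0 changed sign without 1 library, with ranges of -0.115 to 0.0564 for STAT2, -0.128 to 0.0399 for IFIT3, -0.124 to 0.0479 for IFIT5, -0.0405 to 0.181 for MX1, -0.065 to 0.117 for SAMD9 and -0.105 to 0.0202 for TYK2. SAMD9 was also at -0.0103 with library totals, -0.0131 in limma on log2(FPKM + 0.1) and -0.011 in limma on log2(FPKM + 1), which put MX1 at -8.63e-05. The cause of these shifts was not tested. Depth limits the genes under 0.1 FPKM, of which a library holds a few read pairs.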
